A study of Homo sapiens with 4 samples.

Results

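HCT116 is an established human colon cancer cell line, and indole is a product that gut bacteria make from tryptophan. Messenger RNA of wild type HCT116 cells given 1 mM indole for 24 h was set against that of wild type HCT116 cells given DMF, the solvent, for the same 24 h. These are 2 of the 4 libraries of the series, matched by gene name. The other 2 came from an HCT116 line overexpressing human IDO1 (labelled hIDO1 overexpressing), also given 1 mM indole or DMF for 24 h, and are shown beside the wild type values. The labels name no promoter, vector or clone for that line. Of 20802 targets, the 8679 with at least 10 CPM (read counts scaled to a common library total) in 1 of the 2 wild type libraries were compared. Each gene is read from 1 short PCR amplicon, so a value covers only that stretch of the transcript.

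The design text speaks of 2 replicates, yet 1 column of counts was read per group, and nothing says whether it is 1 replicate or several added together. Each group was therefore 1 library, the spread between replicates is unknown, and no p-value is given. Intervals in parentheses are exact 95% intervals of counting error only, since amplified reads carry no molecular identifiers and can repeat 1 molecule. They compare 2 libraries, not 2 conditions. Levels are CPM scaled by TMM (trimmed mean of M values) over the 4 libraries. Where 4 levels are given, their order is wild type with DMF, wild type with indole, IDO1 line with DMF and IDO1 line with indole. Log2 ratios are of CPM plus 1, indole over DMF, which understates differences of low genes. The 2-fold threshold is a log2 ratio of 1 either way on that scale, and folds printed for single genes are plain ratios of CPM.

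As background, indole and its derivatives can bind the aryl hydrocarbon receptor (AHR), which pairs with ARNT on DNA, switches on enzymes such as CYP1A1 and is held back by its own products AHRR and TIPARP. Genes of mitosis are made late in the cell cycle under FOXM1, MYBL2 and the DREAM complex, and their promoters often hold a CHR element and CCAAT boxes. SREBP proteins switch on sterol and fatty acid synthesis when membrane cholesterol is low. ATF4 is translated under amino acid or endoplasmic reticulum (ER) stress and switches on amino acid transport and synthesis.

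The 4 totals lay between 18283862 and 22736172 reads, the lowest being wild type with indole, and 3 reads, the floor used for a count of 0, are worth 0.141 CPM in wild type with DMF and 0.155 CPM with indole. For IDO1 itself the 4 libraries held 0, 2, 3451 and 2440 reads, so its level went with the labels. Of 13 markers of the colon epithelial line, 8 were compared, among them EPCAM, CDH1, KRT8 and KRT18, while CDH17 and GPA33 had 0 reads in both wild type libraries. None of 13 leukocyte, 10 endothelial or 8 hepatocyte and erythroid markers reached 10 CPM in a wild type library, and 1 of 11 fibroblast markers did (COL1A1, 85.7, 97.1, 76.6 and 73.8 CPM). The summed level of the leukocyte list was 11 CPM with DMF and 9.92 CPM with indole. The wild type library with indole stood apart from the other 3: it was at least 2-fold apart from them for 252, 348 and 395 genes, against 38, 31 and 7 genes for the pairs without it. What belongs to indole and what to this 1 library cannot be told apart, and no second library was analysed here with which to repeat a value below.

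Of the 8679 genes compared in wild type, 118 were at least 2-fold higher with indole (1.36%), 134 at least 2-fold lower (1.54%) and 252 apart in either direction (2.90%). The median log2 ratio of all genes was -0.04, with an SD of 0.45 over genes, and 5% of genes lay below -0.75 and 5% above 0.67. Most of these differences were modest in size, since 94 of the 118 and 128 of the 134 lay between 2-fold and 3-fold, and 8 genes were over 4-fold higher against 0 over 4-fold lower on that scale. The genes at least 2-fold lower were the more abundant ones, with a median of 84.4 CPM in the library where they were higher, against 28.4 CPM for the genes at least 2-fold higher. Library totals in place of TMM moved the median of all genes from -0.04 to 0.14 and the counts to 248 higher and 75 lower (76.8% of the apart genes higher, against 46.8%). For that reason each gene group is read against the median of all genes, with 4339 genes below it and 4339 above by construction. The gene lists were chosen with earlier results of these data known, so their directions are described and not tested. A count of list members at least 2-fold lower or higher is to be read beside 1.54% or 1.36% of all genes. Genes were named by a rule given with the methods, and any gene outside it is said to have been chosen after its value was seen.

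**Figure D1:**
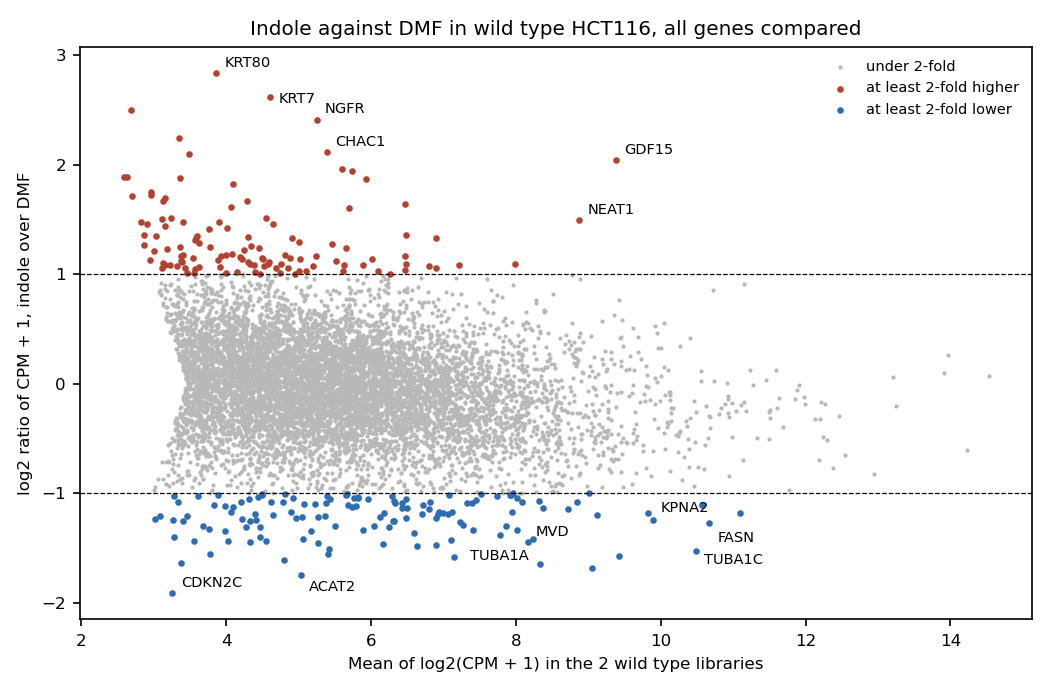
Log2 ratio of CPM plus 1, indole over DMF in wild type (y axis), against the mean log2 level in both libraries (x axis), 1 point per gene for the 8679 genes compared. Dashed lines mark 2-fold; the 118 genes above the upper line reach 2.84 (KRT80) and the 134 below the lower one reach -1.91 (CDKN2C).

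The largest differences upward included 2 keratins and a neurotrophin receptor. KRT80, an epithelial keratin, stood at 4.42, 37.8, 6.62 and 8.1 CPM and was 8.55-fold higher (6.89 to 10.7). KRT7, a keratin of simple ductal epithelia, stood at 8.84, 59.4, 15.9 and 22.9 CPM and was 6.72-fold higher (5.76 to 7.89). Both were highest in wild type with indole, above all 3 other libraries, and the list of 7 keratins compared had a median of 0.10. The more abundant KRT8, KRT18 and KRT19 had log2 ratios of 0.02, 0.16 and -0.49, and KRT15, the lowest of the list, had -0.96; KRT8, KRT15 and KRT19 were chosen after their values were seen. NGFR, the p75 neurotrophin receptor, stood at 15.5, 86.8, 11.6 and 8.99 CPM. NR4A2, an orphan nuclear receptor of the immediate early class, stood at 30.8, 115, 30.8 and 28.4 CPM and was 3.74-fold higher (3.43 to 4.09). In both genes 1 library, wild type with indole, was far above the other 3. Those lay close together for NR4A2 and between 8.99 and 15.5 CPM for NGFR. Smaller genes showed the same shape. SLC16A6, a monocarboxylate transporter family member, went from 4.33 to 18.7 CPM (4.31-fold higher, 3.42 to 5.48). SGK2, a kinase related to SGK1, went from 2.21 to 10.9 CPM (4.91-fold higher, 3.56 to 6.89). NTN5, a netrin, was 8.39-fold higher (5.92 to 12.2), and that fold rests on 36 reads in the DMF library.

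**Figure D2:**
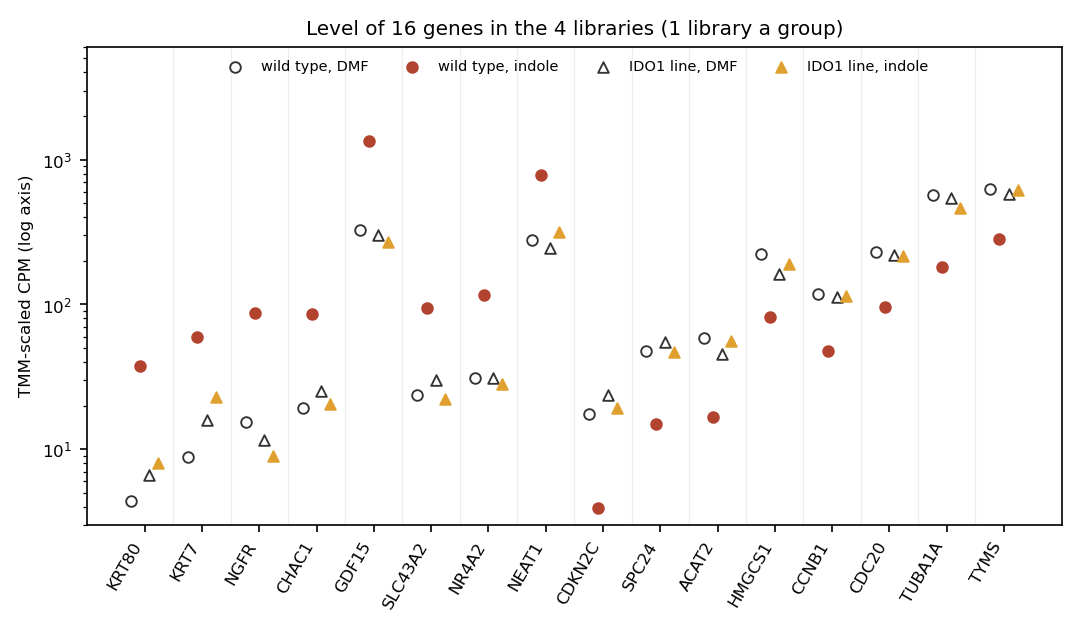
TMM-scaled CPM (log axis) of 16 genes in the 4 libraries, 1 point per library with no replicates. For the first 8 genes wild type with indole is the highest point and for the last 8 the lowest. How close the other 3 libraries lie varies by gene. For NR4A2 they stand at 30.8, 30.8 and 28.4 CPM against 115 CPM, and for KRT7 at 8.84, 15.9 and 22.9 CPM against 59.4 CPM.

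Genes of mitosis were lower in all 4 of their lists. The kinetochore is the protein plate that ties chromosomes to the spindle. Of 28 genes of the kinetochore and spindle checkpoint that were compared, 28 lay below the median of all genes, 9 were lower by 2-fold or more and 0 were higher, against 1.54% lower among all genes, and their median log2 ratio was -0.89. SPC24, a subunit of the NDC80 complex that grips microtubules, stood at 47.4, 14.8, 54.7 and 46.8 CPM. NUF2 of the same complex stood at 11.4, 4.29, 9.86 and 12.9 CPM and was 2.66-fold lower (2.07 to 3.46). CENPA, the histone H3 variant that marks centromeres, stood at 27.6, 11.1, 23.1 and 24.6 CPM and was 2.48-fold lower (2.12 to 2.91). In each of these genes wild type with indole was the lowest library, and the other 3 differed among themselves by far less. CENPW, another centromere protein, went from 37.4 to 13.2 CPM. The median of the list in the IDO1 line was 0.08, with 0 members 2-fold apart.

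The kinases, cyclins and exit factors of mitosis went the same way. Of 28 compared, 27 lay below the median of all genes and 10 were lower by 2-fold or more, against 1.54% of all genes. The list median was -0.87 (-0.01 in the IDO1 line). CCNB1, the cyclin that activates CDK1 at entry into mitosis, stood at 119, 47.3, 113 and 115 CPM. CDC20, which activates the anaphase-promoting complex, stood at 231, 95.5, 218 and 217 CPM. UBE2C, the ubiquitin-conjugating enzyme of that complex, stood at 364, 148, 345 and 344 CPM and was 2.46-fold lower (2.36 to 2.57). All 3 stood at less than 50% of their DMF level in wild type and near it in the IDO1 line. FOXM1, a transcription factor of this group, had a log2 ratio of -0.60, and went from 95.3 to 62.7 CPM. The member that ran against the list was CDC25B, a phosphatase that activates CDK1, at 0.46, chosen after its value was seen.

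Motor proteins and chromosome scaffolds completed the group. Of 21 mitotic kinesins and spindle proteins, 21 lay below the median of all genes, and the list median was -0.83. Of these, 6 were lower by 2-fold or more, against 1.54% of all genes. KIF22, a chromosome-binding kinesin, went from 29.4 to 11.3 CPM (2.61-fold lower, 2.24 to 3.06). KIFC1, a minus-end kinesin that focuses spindle poles, went from 121 to 50.3 CPM (2.41-fold lower, 2.24 to 2.6). Among 16 genes of condensin, cohesin and topoisomerase, the median was -0.59, and the 3 members at least 2-fold lower were the condensin I subunits NCAPG, NCAPH and NCAPD2, at -1.09, -1.08 and -1.08. NIPBL, the loader of cohesin, was at 0.05, chosen after its value was seen. With library totals the counts at least 2-fold lower were 7 for kinetochore genes, 6 for kinases and cyclins, 3 for kinesins and 0 for condensin and cohesin, while the medians of the 4 lists relative to all genes stayed between -0.91 and -0.46 over the alternatives tried.

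The promoters of 3 of these genes are shown because they hold both elements that mitotic genes are known for. The sequences are the 250 bases before the start site in the RefSeq table of GRCh38.p14, read 5′ to 3′ on the strand of the gene, and capitals mark TTTGAA (the CHR element) and CCAAT on the strand shown, or TTCAAA where the CHR lies on the other strand.
CDC20, chr1:43358731-43358980, plus strand: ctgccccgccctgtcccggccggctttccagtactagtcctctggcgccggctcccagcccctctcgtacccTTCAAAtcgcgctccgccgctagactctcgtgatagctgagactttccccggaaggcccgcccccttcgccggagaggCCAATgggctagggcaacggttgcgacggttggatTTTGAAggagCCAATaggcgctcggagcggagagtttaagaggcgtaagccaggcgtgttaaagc
PLK1, chr16:23678639-23678888, plus strand: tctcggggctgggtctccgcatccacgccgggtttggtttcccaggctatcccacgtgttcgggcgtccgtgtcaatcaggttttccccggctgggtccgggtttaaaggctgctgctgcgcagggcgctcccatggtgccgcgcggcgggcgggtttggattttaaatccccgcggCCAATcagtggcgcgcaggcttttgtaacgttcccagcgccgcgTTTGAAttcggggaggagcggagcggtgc
CCNB2, chr15:59104896-59105145, plus strand: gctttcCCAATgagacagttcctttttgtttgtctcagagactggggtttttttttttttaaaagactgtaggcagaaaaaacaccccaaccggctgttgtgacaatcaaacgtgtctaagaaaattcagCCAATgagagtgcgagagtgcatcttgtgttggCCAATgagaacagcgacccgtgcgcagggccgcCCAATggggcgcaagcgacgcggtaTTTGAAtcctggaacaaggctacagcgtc
In CDC20 a CHR element begins 65 bases before the start and CCAAT boxes begin 100 and 55 bases before it. PLK1, the polo kinase of mitosis, has its CHR element 29 bases before the start and a CCAAT box 73 bases before it, and CCNB2, a second mitotic cyclin, a CHR element at 29 and CCAAT boxes at 54, 87, 120 and 244 bases. PLK1 stood at 233, 109, 268 and 258 CPM and CCNB2 at 122, 50.7, 123 and 122 CPM, each lowest in wild type with indole; both genes were chosen after their values were seen, as holders of these motifs.

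Counted over 300 bases of promoter (250 before to 50 after the start) and on both strands, TTTGAA was present in 15.4% of 27305 promoters in the table and in 8.9% of the 6872 genes compared that had an entry. It was present in 37 of 62 genes of 3 mitosis lists, those of the kinetochore, the kinases and cyclins, and the kinesins (59.7%), in 27 of 103 genes at least 2-fold lower (26.2%) and in 4 of 77 genes at least 2-fold higher (5.2%). Outside those 3 lists, 14 of 82 genes at least 2-fold lower held it (17.1%), NCAPG and NCAPD2 of condensin among them. CCAAT was present in 37.4% of genes compared, in 62 of 103 genes at least 2-fold lower (60.2%) and in 23 of 77 at least 2-fold higher (29.9%). Among the 62 genes, the 28 with both motifs had a median log2 ratio of -0.92, the 15 with CCAAT alone -0.97, the 9 with TTTGAA alone -0.76 and the 10 with neither -0.51. The E2F motif TTTNGCG was in 11.3% of the same 62 genes and 8.3% of genes compared. A match is a stretch of letters and no evidence of binding, and short motifs also depend on base composition.

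Genes of DNA replication were lower by less. Of 36 compared, 34 lay below the median of all genes and 2 were lower by 2-fold or more, against 1.54% of all genes. The list median was -0.54. The replication factor C subunits RFC2 and RFC5, which load the PCNA clamp, were 2.5-fold lower (2.31 to 2.72) and 2.19-fold lower (1.91 to 2.51). CDC45 and MCM6, parts of the replicative helicase, went from 77.6 to 39.1 CPM and from 278 to 144 CPM. PCNA itself was at -0.32, nearer the median of all genes, and POLD3, a polymerase delta subunit, was above 0 at 0.28; both were chosen after their values were seen. Nucleotide synthesis had a median of -0.55 over 23 genes. Its 2 members at least 2-fold lower both make thymidine nucleotides: TYMS, thymidylate synthase, stood at 624, 281, 580.4 and 622 CPM, and DTYMK, the next kinase, at 92.7, 36.2, 95.8 and 83.8 CPM. ADSL of purine synthesis and DHODH of pyrimidine synthesis followed at -0.94 and -0.91.

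Genes that package and repair DNA were also below the median of all genes. Histone chaperones and assembly factors had a median of -0.44, with 15 of 15 below the median of all genes. HMGB1, an abundant DNA-bending protein, stood at 70.2, 27.9, 61.3 and 67.8 CPM and was 2.52-fold lower (2.28 to 2.78). DNMT1, which copies DNA methylation after replication, went from 313 to 167 CPM. Histone genes had a median of -0.52 over 24 genes, but many are near-identical copies that can share reads, so values of single histone genes, such as -1.68 for HIST1H2BC, are uncertain. Relative to all genes the list median lay between -0.49 and -0.13 over the alternatives tried. The list had a median transcript length of 772 bases, against 3667 for all genes, and the part of length was not tested. Homologous recombination and Fanconi genes had a median of -0.49 over 18 genes, and relative to all genes lay between -0.46 and -0.23 over the alternatives. Mismatch and excision repair was closer to all genes, at -0.23, with 8 of 21 above the median of all genes.

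Among CDK inhibitors and E2F repressors, 2 of 11 were at least 2-fold lower and 0 higher, against 1.54% and 1.36% of all genes. CDKN2C, an inhibitor of CDK4 and CDK6 (p18), stood at 17.5, 3.93, 23.6 and 19.3 CPM, the largest difference downward among all genes compared, and was 4.47-fold lower (3.48 to 5.79). CDKN3, a phosphatase that acts on CDK2, went from 56.7 to 21.7 CPM (2.62-fold lower, 2.34 to 2.93). On the other side CDKN1A, the p21 inhibitor, was at 0.65 and CDK6 at 0.61, and neither was 2-fold apart. The G1 cyclins and kinases had a median of -0.30, with MYC at -0.07 and E2F1 at -0.23. CDKN1A and CDK6 were chosen after their values were seen.

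Cholesterol synthesis begins with the joining of acetyl units and passes through mevalonate and squalene. Of 10 genes compared from the first step to squalene epoxidase, 10 lay below the median of all genes. Of these, 7 were lower by 2-fold or more, against 1.54% of all genes. The list median of -1.18 was the lowest of the lists with at least 8 genes compared. ACAT2, which joins 2 acetyl-CoA, stood at 58.6, 16.8, 45.2 and 56.3 CPM. HMGCS1, the next enzyme, stood at 224, 82.5, 163 and 189 CPM (2.72-fold lower, 2.57 to 2.88). In both genes wild type with indole was the lowest library, and wild type with DMF was the highest. MVK, PMVK and MVD, which carry mevalonate to isopentenyl pyrophosphate, had log2 ratios of -1.18, -0.24 and -1.45. IDI1, FDPS and FDFT1 on the way to squalene had -1.08, -1.17 and -0.76, and SQLE, squalene epoxidase, had -0.18. PMVK and SQLE were the members nearest to all genes. PMVK, SQLE, MVK, IDI1, FDPS and FDFT1 were chosen after their values were seen.

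The later steps were lower by less. Of 10 genes from lanosterol to cholesterol, 9 lay below the median of all genes, with a median of -0.64, and EBP, a sterol isomerase, was the 1 member at least 2-fold lower (-1.17, 369.9 to 163 CPM). TM7SF2, which shares its reductase step with LBR (-0.93), was at 0.03. Among genes of sterol control and uptake the median was -0.28, and 3 of 14 were at least 2-fold lower, against 1.54% of all genes. INSIG1, which retains the SREBP machinery in the ER and is itself an SREBP target, stood at 353, 135, 188 and 211 CPM and was 2.62-fold lower (2.5 to 2.74). STARD4, a sterol carrier, was at -1.04. SREBF1 stood at 140.4, 87.5, 98.8 and 109.8 CPM and SREBF2 at 235, 187, 229 and 209 CPM. LRP1, a large endocytic receptor, ran the other way at 0.91. In the IDO1 line the list medians were 0.09, 0.06 and 0.04. With library totals 5 mevalonate genes were at least 2-fold lower, and 4 once a linear trend with level, GC content and transcript length was removed. TM7SF2 and LRP1 were chosen after their values were seen.

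**Figure D3:**
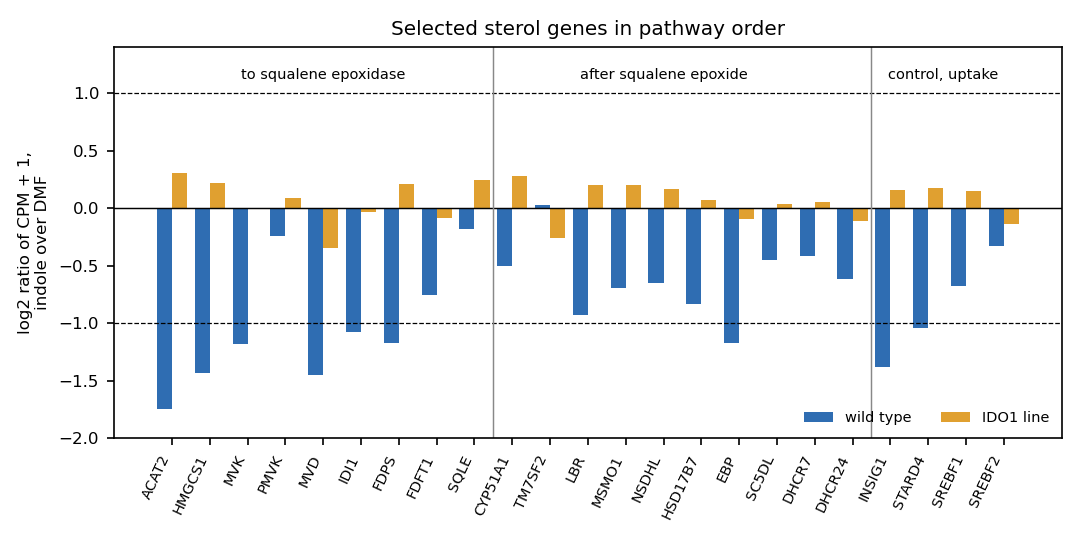
Log2 ratio of CPM plus 1, indole over DMF, for selected sterol genes in pathway order in wild type (blue) and the IDO1 line (orange), 1 library per bar end and no error bars because no group has replicates. Dashed lines mark 2-fold; in wild type the bars reach -1.74 at ACAT2 and are shorter than 2-fold for PMVK, FDFT1, SQLE and most late steps, and in the IDO1 line they lie between -0.35 and 0.31.

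The sterol regulatory element TCACNCCAC was in 0 of 14 promoters of the sterol synthesis genes with an entry and in 1.1% of genes compared, so the letters searched were not in these windows. CCAAT was in 10 of the same 14 promoters (71.4%).

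Fatty acid genes showed the same direction. All 14 genes of fatty acid synthesis and desaturation compared lay below the median of all genes, with a median of -0.51 (-0.02 in the IDO1 line). FASN, fatty acid synthase, stood at 2524, 1043, 1908 and 1806 CPM, and SCD, which adds the first double bond, at 4892, 2494, 3001 and 2855 CPM (1.96-fold lower, 1.94 to 1.98). Wild type with DMF was the highest library for both genes and wild type with indole the lowest. ACLY, which supplies acetyl-CoA from citrate, went from 359 to 216 CPM. Phospholipid and triglyceride synthesis had a median of 0.00, and fatty acid oxidation and peroxisome genes one of -0.22. Both lists lay nearer the median of all genes than fatty acid synthesis, a difference between lists that was not tested, and the first turned from 0.04 to -0.04 relative to all genes with the trend in level, GC content and length removed.

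Enzymes of energy metabolism were below the median of all genes in 3 lists. Of 21 genes of glucose transport and glycolysis, 17 lay below it, with a median of -0.60 and 0 at least 2-fold lower. GAPDH, a glycolytic enzyme that is among the most abundant messages, stood at 10489, 5917, 9362 and 8867 CPM. PGAM1 and ALDOA, further glycolytic enzymes, were at -0.94 and -0.92, while PFKFB3, which makes an activator of phosphofructokinase, was at 0.44, chosen after its value was seen. All 25 genes of the tricarboxylic acid cycle lay below the median of all genes, with a median of -0.52, and SDHB, a succinate dehydrogenase subunit, was 2.15-fold lower (2.0 to 2.31). All 49 nuclear genes of the respiratory chain did so too, with a median of -0.60. Of these, 6 were at least 2-fold lower, against 1.54% of all genes. With library totals 2 were, and with a running median over level removed 3 were. With the linear trend removed 1 was, but that fit keeps only the 37 members with a matched transcript. Relative to all genes, the medians of the 3 lists also varied over the alternatives tried. They lay between -0.57 and -0.3 for glycolysis, -0.54 and -0.26 for the tricarboxylic acid cycle and -0.57 and -0.31 for the respiratory chain. COX8A of complex IV stood at 239, 97.4, 208 and 216 CPM and NDUFS7 of complex I at 57.6, 24.3, 47 and 50.5 CPM, both lowest in wild type with indole. Short transcripts as a whole were lower with indole, as described below. The 37 members with a matched transcript had a median length of 1769 bases, against 3667 for all genes with one. The other 12 of the 49 matched none, and the part of length in this result was not tested.

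Several housekeeping complexes were lower by similar amounts, most with few members 2-fold lower. All 31 proteasome genes lay below the median of all genes, between -0.83 (PSMB3) and -0.22 (PSMD4), with a median of -0.49. The TRiC chaperonin and prefoldin, which fold actin and tubulin, had a median of -0.52, and CCT5 was at -0.78. Splicing factors had a median of -0.53 over 48 genes, 2 of them at least 2-fold lower, against 1.54% of all genes. CLK1, a kinase that phosphorylates SR splicing proteins, ran against that list at 0.46. Mitochondrial ribosomal proteins had a median of -0.43, with 1 of 52 genes at least 2-fold lower, near the 1.54% of all genes. Relative to all genes and over the alternatives tried, the proteasome median lay between -0.51 and -0.29 and that of TRiC between -0.54 and -0.2. Splicing factors lay between -0.54 and -0.31 and mitochondrial ribosomal proteins between -0.44 and -0.24. In that order the median transcript lengths were 2586, 2018, 3214 and 1722 bases, against 3667 for all genes. The part of length was not tested. The large and small subunits of the cytosolic ribosome had -0.22 and -0.18, and relative to all genes these turned to 0.21 and 0.28 with the trend in level, GC content and length removed and to 0.03 and 0.08 with a running median over level removed. RPS7 (-1.64) and RPL22 (-1.47) lay far below their lists, and cytosolic ribosomal proteins have many processed copies in the genome, so single values are uncertain. PSMD4 and CLK1 were chosen after their values were seen.

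Tubulins, the building blocks of microtubules, showed some of the largest differences among abundant genes. TUBA1A stood at 571, 182, 539.6 and 461 CPM and was 3.14-fold lower (3.02 to 3.26). TUBA1B stood at 1184, 397, 1119.9 and 1078 CPM and was 2.99-fold lower (2.91 to 3.06). TUBA1C stood at 2429, 839.7, 2053 and 2062 CPM and was 2.89-fold lower (2.84 to 2.94). All 3 were lowest in wild type with indole. Their coding sequences are nearly the same, so reads may be shared among them. TUBB, a beta tubulin, went from 3289 to 1453 CPM, and the list of tubulins and microtubule proteins had a median of -0.73 over 18 genes. MAP1B, a microtubule-associated protein, was above 0 at 0.86, chosen after its value was seen. The actin and myosin list was closer to all genes, at -0.15, which relative to all genes was 0.01 when at least 50 CPM was asked for. KPNA2, an importin that carries proteins into the nucleus, stood at 1459, 614, 1595 and 1363 CPM and was 2.38-fold lower (2.33 to 2.43), and CSE1L, which returns importins to the cytoplasm, was at -1.09; the list of pores and importins as a whole had a median of -0.23.

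On the higher side, the outputs of ATF4 had the highest median of the lists with at least 8 genes compared, at 0.62 over 14 genes, against -0.08 in the IDO1 line. Of these, 12 lay above the median of all genes and 2 were at least 2-fold higher, against 1.36% of all genes, or 5 with library totals. CHAC1, which cleaves glutathione, stood at 19.2, 86.3, 25.2 and 20.5 CPM. GDF15, a secreted stress factor, stood at 326, 1349, 302 and 269 CPM. ASNS, asparagine synthetase, stood at 55.5, 99.4, 57 and 67.4 CPM and was 1.79-fold higher (1.66 to 1.93). For CHAC1 and GDF15 wild type with indole was several times above the other 3 libraries, and for ASNS, chosen after its value was seen, it was the highest by less. ATF4 itself stood at 526, 812, 695 and 652 CPM, highest in wild type with indole and lowest in wild type with DMF, with the IDO1 libraries between them. DDIT3, which encodes CHOP, was hardly detected, with 7, 9, 9 and 2 reads. TRIB3 and DDIT4, other known outputs, were at 0.19 and 0.28, and PPP1R15A at -0.16; these 3 were chosen after their values were seen.

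Promoters of 2 of these genes are shown because they hold TGATGNAA, the letters used here for the amino acid response element, which reads TTNCATCA on the other strand. Capitals mark the match, and each run is the 250 bases before the start site in the RefSeq table of GRCh38.p14, on the strand of the gene.
CHAC1, chr15:40953221-40953470, plus strand: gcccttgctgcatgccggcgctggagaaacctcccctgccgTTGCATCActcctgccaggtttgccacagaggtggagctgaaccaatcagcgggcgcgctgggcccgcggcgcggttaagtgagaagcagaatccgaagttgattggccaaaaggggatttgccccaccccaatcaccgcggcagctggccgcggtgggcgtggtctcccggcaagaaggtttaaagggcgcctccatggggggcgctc
ASNS, chr7:97872409-97872658, minus strand: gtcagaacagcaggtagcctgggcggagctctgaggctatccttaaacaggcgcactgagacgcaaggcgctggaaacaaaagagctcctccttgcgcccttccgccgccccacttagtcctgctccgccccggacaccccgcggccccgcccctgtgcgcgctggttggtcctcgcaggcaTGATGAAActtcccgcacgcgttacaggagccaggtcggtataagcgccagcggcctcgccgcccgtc
The match begins 209 bases before the start in CHAC1, on the other strand, and 68 bases before the start in ASNS. It was present in 4 of 13 ATF4 genes with an entry (30.8%), the others being ATF3 and PPP1R15B, against 1.5% of genes compared and 3.7% of all promoters. Among the genes at least 2-fold higher, 3 of 77 held it (3.9%).

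Amino acid supply genes were higher too. Of 16 amino acid transporters compared, 14 lay above the median of all genes, with a median of 0.40. SLC43A2, a transporter of large neutral amino acids, stood at 23.7, 95, 30.2 and 22.2 CPM and was 4.02-fold higher (3.64 to 4.44). SLC7A11, the cystine transporter, stood at 73.9, 188, 96 and 84.4 CPM, and SLC1A4, which carries alanine, serine and cysteine, was 2.0-fold higher (1.67 to 2.42). The serine, glycine and folate enzymes split in 2 directions, with a median of 0.24. PSAT1, CTH and PHGDH, which make serine and cysteine, were at 0.97, 0.92 and 0.80, whereas MTHFD1 and SHMT2 of the folate cycle were at -0.60 and -0.40, the last 2 chosen after their values were seen. ASS1, which joins citrulline and aspartate in arginine synthesis, stood at 101, 214, 84.6 and 103 CPM. Cytosolic tRNA synthetases had a median of 0.05 and mitochondrial ones -0.26.

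Genes of ER folding, the lysosome and autophagy were higher by small amounts. The ER chaperone and unfolded protein response list had a median of 0.21 and 0 of 26 members at least 2-fold higher, and DNAJB9 and HERPUD1, 2 targets of that response, were at 0.90 and 0.67. Other lists of protein quality control were on the other side: cytosolic and mitochondrial heat shock proteins at -0.29, and the proteasome and TRiC lists given above. Of 26 lysosomal genes, 20 lay above the median of all genes, with a median of 0.26, and the protease CTSB went from 163 to 257 CPM (1.57-fold higher, 1.5 to 1.64). The autophagy list had 0.33, with the ATG8 family member GABARAPL1 going from 16.7 to 31.9 CPM, but that median relative to all genes shrank from 0.37 to 0.05 with no filter on low values. FTH1, the heavy chain of ferritin that stores iron, is one of the most abundant genes and stood at 1657, 3119, 1368 and 1543 CPM. SAT1, which acetylates polyamines for breakdown, stood at 308, 614, 128 and 157 CPM, with lower levels in both IDO1 libraries than in either wild type one.

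Of 19 measured genes of the AHR list, 9 were under the minimum level and 10 were compared. The 10 had a median of 75.1 CPM in the library where they were higher. For the 8125 compared genes with a matched transcript it was 45.3 CPM. AHR, which had a log2 ratio of 0.35 in wild type, had 0.63 in the IDO1 line. TIPARP, its feedback repressor, stood at 7.48, 16.8, 7.84 and 8.73 CPM and was the 1 of 10 list members compared that was at least 2-fold higher, while the list median was 0.11. CYP1A1, AHRR and CYP1B1 were under 10 CPM in each library. CYP1A1 stood at 0.846, 4.7, 1.27 and 1.25 CPM, from 18, 91, 29 and 24 reads. AHRR stood at 1.88, 7.29, 3.81 and 1.62 CPM and CYP1B1 at 1.18, 4.5, 1.67 and 2.14 CPM. All 3 had their highest level in wild type with indole. Between the IDO1 libraries CYP1A1 was level, AHRR was lower with indole and CYP1B1 slightly higher. CYP1A2 had 0 and 1 read in wild type. UGT1A6 had 0 reads in each library, which allows up to 0.141 CPM with DMF and 0.155 CPM with indole.

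The promoter of CYP1A1 is shown for the AHR core motif GCGTG, marked in capitals, in the 250 bases before the start in the RefSeq table of GRCh38.p14; the well-studied enhancer of this gene lies farther upstream and is not in the window.
CYP1A1, chr15:74725529-74725778, minus strand: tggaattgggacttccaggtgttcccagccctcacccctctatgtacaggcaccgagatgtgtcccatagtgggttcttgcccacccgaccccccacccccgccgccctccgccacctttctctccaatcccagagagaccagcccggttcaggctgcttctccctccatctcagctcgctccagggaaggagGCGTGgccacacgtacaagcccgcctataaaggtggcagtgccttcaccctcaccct
The motif begins 57 bases before the start. It is short and common: 53.4% of genes compared held it, as did 9 of 15 members of the AHR list with an entry (60%), 53.2% of genes at least 2-fold higher and 54.4% of those at least 2-fold lower, so these shares were close to each other.

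Other receptors and drug-handling genes were measured too. All 8 compared members of the PXR, CAR and drug transporter list lay above the median of all genes, and 13 were under the minimum level. ABCC3, an export pump for conjugated compounds, stood at 8.6, 28.4, 8.46 and 10.2 CPM and was 3.3-fold higher (2.78 to 3.92). The NRF2 and glutathione list had a median of 0.03, and its 2 members at least 2-fold higher were ABCC3 and SLC7A11, both also on other lists. NQO1, a common NRF2 target, was at 0.13. Nuclear receptors had a median of 0.28, and NR3C1, the glucocorticoid receptor, stood at 4.94, 11.8, 6.97 and 6.32 CPM, the highest in wild type with indole.

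Genes of adhesion to the matrix were higher as a group by modest amounts. All 17 compared integrins and laminins lay above the median of all genes, with a median of 0.44 (-0.04 in the IDO1 line). ITGA2, a collagen-binding integrin, stood at 53, 107, 51.1 and 42.9 CPM and was the 1 member at least 2-fold higher. Its log2 ratio of 1.01 lay just over the threshold. With library totals 3 members were at least 2-fold higher, and with the linear trend removed 0 were. The count was also 0 with TMM over the 2 wild type libraries, with size factors of DESeq2 and with a pseudocount of 5 CPM. LAMB1, a laminin chain, was at 0.87. Tight junction genes had a median of 0.27, with 17 of 18 above the median of all genes. TJP1, the scaffold of tight junctions, stood at 4.61, 15, 7.14 and 4.65 CPM, highest in wild type with indole. CLDN4, a claudin, went from 273 to 483 CPM (1.77-fold higher, 1.71 to 1.83). The median transcript length was 5766 bases for the integrin and laminin list and 4615 for tight junctions, against 3667 for all genes. Long transcripts as a whole were higher with indole, and the part of length in these values was not tested.

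Growth factor and hormone signalling genes were likewise above the median of all genes. EGF ligands and ERBB receptors had a median of 0.48 over 11 genes, with the ligand BTC at 5.88, 13.5, 6.05 and 5.54 CPM (2.29-fold higher, 1.85 to 2.86) and TGFA at 0.77. The insulin, PI3K and mTOR list had 0.30 and a median transcript length of 7011 bases. IRS2, an adaptor of the insulin receptor, stood at 12.9, 38.7, 14.1 and 15.6 CPM and was 2.99-fold higher (2.6 to 3.45), and IGF1R, the IGF receptor, was 2.15-fold higher (1.94 to 2.4). INSR and FOXO3, respectively the insulin receptor and a transcription factor that insulin signalling inhibits, were at 0.86 and 0.84, the latter chosen after its value was seen. TGF-beta and BMP genes had a median of 0.25, with 21 of 22 above the median of all genes and SKIL, a feedback inhibitor of SMADs, at 0.94. Members of the Hippo list had 0.30.

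Immediate early transcription factors went in both directions. KLF4, a factor of differentiated gut epithelium, stood at 33, 71, 30.2 and 33.1 CPM, and FOSL2, an AP-1 subunit, at 30.05, 66.4, 33.5 and 28.7 CPM; both were highest in wild type with indole. EGR1 stood at 252, 120.2, 108 and 101 CPM, so wild type with DMF stood above the other 3 libraries, which lay close together. FOSL1 was at -0.64, chosen after its value was seen. AP-1 letters TGANTCA were in 5 of 77 promoters of genes at least 2-fold higher (6.5%) and in 0 of 103 at least 2-fold lower. They were in 3.8% of genes compared and in 7.8% of all promoters. The differentiation gene AQP3, a glycerol channel of the gut, stood at 6.49, 17.6, 5.65 and 6.11 CPM, whereas the list of mucins and secretory genes had 1 of 19 measured members at 10 CPM or more.

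The 23 interferon genes compared had a median of 0.38 (-0.03 in the IDO1 line). GBP2, a guanylate-binding protein, went from 2.12 to 10.5 CPM on 45 and 204 reads. STAT2, a factor that carries the interferon signal, stood at 61, 126, 51.4 and 54.1 CPM. IRF7, which amplifies the response, stood at 17.8, 36.8, 14.8 and 14.7 CPM. Of the list 19 genes lay above the median of all genes and 3 were at least 2-fold higher, against 1.36% of all genes. The classical targets ISG15 and IFIT5 were on the other side, at -0.32 and -0.09, chosen after their values were seen. Class I antigen presentation had a median of 0.12, and HLA-E a log2 ratio of 0.77.

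The noncoding RNAs had a median of 0.01 over 14 genes, and 2 long nuclear ones were at its upper end. NEAT1, the scaffold of paraspeckles, stood at 278, 786, 245 and 316 CPM and was 2.83-fold higher (2.75 to 2.92), and MALAT1 stood at 1249, 2266, 1109 and 1026 CPM (1.81-fold higher, 1.79 to 1.84). NEAT1 in wild type with indole was above all 3 other libraries. Outside that list SNHG9, a host gene of small nucleolar RNAs, went from 22.6 to 7.03 CPM (3.21-fold lower, 2.65 to 3.91), while GAS5, a host gene on the list, was at -0.05, chosen after its value was seen. RMRP, the RNA of a ribosomal RNA processing complex, was among the most abundant targets at 23047, 24268, 17083 and 22478 CPM.

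Of the 10 most abundant genes, the cytoskeletal actins ACTG1 and ACTB were at -0.60 and -0.65, PTMA, a chromatin-associated small protein, at -0.77, and the elongation factor EEF1A1 at 0.26. Among genes of at least 200 CPM, those highest relative to DMF also included AKAP12, a kinase scaffold (1.94-fold higher, 1.89 to 2.0), TIMP2, an inhibitor of matrix metalloproteases (1.94-fold higher, 1.86 to 2.03), and GPRC5A, an orphan receptor of epithelia (1.87-fold higher, 1.8 to 1.95). NDRG1, a stress- and differentiation-linked gene, stood at 173, 369, 120.3 and 119 CPM. Downward they included SF3B5, a splicing factor subunit, which stood at 242, 80.5, 146 and 153 CPM.

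Genes too low to enter the comparison leaned upward. Of 2556 genes under 10 CPM in both wild type libraries with at least 50 reads in 1, 83 were at least 2-fold higher (3.25%) and 20 at least 2-fold lower (0.782%). CHRNE, a subunit of the muscle acetylcholine receptor, had 9 reads with DMF and 104 with indole, and CCL25, a chemokine of the small intestine, had 2 and 72. In the IDO1 line CHRNE had 24 and 23 reads and CCL25 had 4 and 3. SLPI, a secreted protease inhibitor, had 30 and 131 reads in wild type. Downward, MMP7, a metalloprotease of epithelia, had 69 and 12, and STMN1, which destabilizes microtubules, had 107 and 26. Folds from so few reads carry wide intervals, such as 4.8-fold higher (3.21 to 7.39) for SLPI and 5.23-fold lower (2.81 to 10.6) for MMP7.

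The ratios also varied with transcript length and level across all genes. With the 8125 compared genes that matched a GENCODE transcript cut into 5 groups of like size, the median log2 ratio in wild type was -0.25, -0.13, -0.04, 0.03 and 0.14 from the shortest transcripts to the longest. In the IDO1 line the same groups lay between -0.03 and 0.01. By mean level the medians were 0.09, 0.02, -0.02, -0.09 and -0.20 from the lowest genes to the highest, and by GC content they stayed between -0.06 and -0.02. The genes at least 2-fold lower had a median transcript length of 2429 bases, those at least 2-fold higher 3980 and all genes compared 3667. The group of shortest transcripts held 55 genes 2-fold lower and 15 higher, and the group of longest ones 5 lower and 34 higher. The amplicon is 1 short target whatever the transcript's length. The part of length and level in the values of single genes and lists was not tested. After removal of a linear trend with level, GC content and length, the counts over 8125 genes were 106 on the higher side and 83 on the lower.

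**Figure D4:**
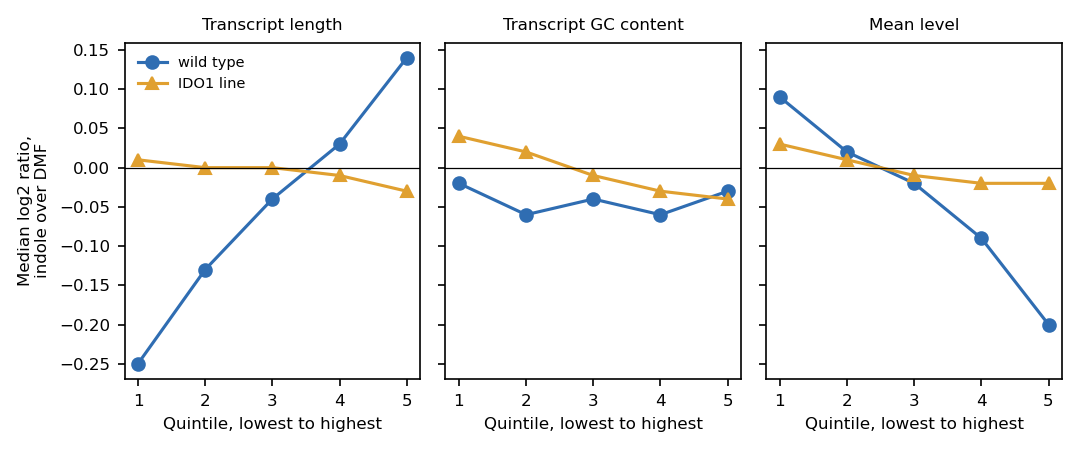
Median log2 ratio of CPM plus 1, indole over DMF, in 5 groups of genes of like size by transcript length, transcript GC content and mean level, in wild type (circles) and the IDO1 line (triangles). Wild type climbs from -0.25 to 0.14 with length and drops from 0.09 to -0.20 with level, and the IDO1 line stays between -0.04 and 0.04.

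Beside wild type, the IDO1 line with indole differed little from the IDO1 line with DMF: 7 of 8523 genes were at least 2-fold apart (0.0821%), 4 of them higher (0.0469%) and 3 lower (0.0352%), and the SD of log2 ratios over genes was 0.19 against 0.45. The 118 genes at least 2-fold higher in wild type had a median of 1.17 there and -0.03 in the IDO1 line, where 54 were above 0, 64 below and 0 at least 2-fold higher. The 134 genes at least 2-fold lower had medians of -1.19 and 0.01, with 69 above 0, 65 below and 0 at least 2-fold lower in the IDO1 line. TJP1 had 1.51 in wild type and -0.53 in the IDO1 line, where it was under 10 CPM in each library. As each value rests on 1 library, the difference between the lines was not tested.

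**Figure D5:**
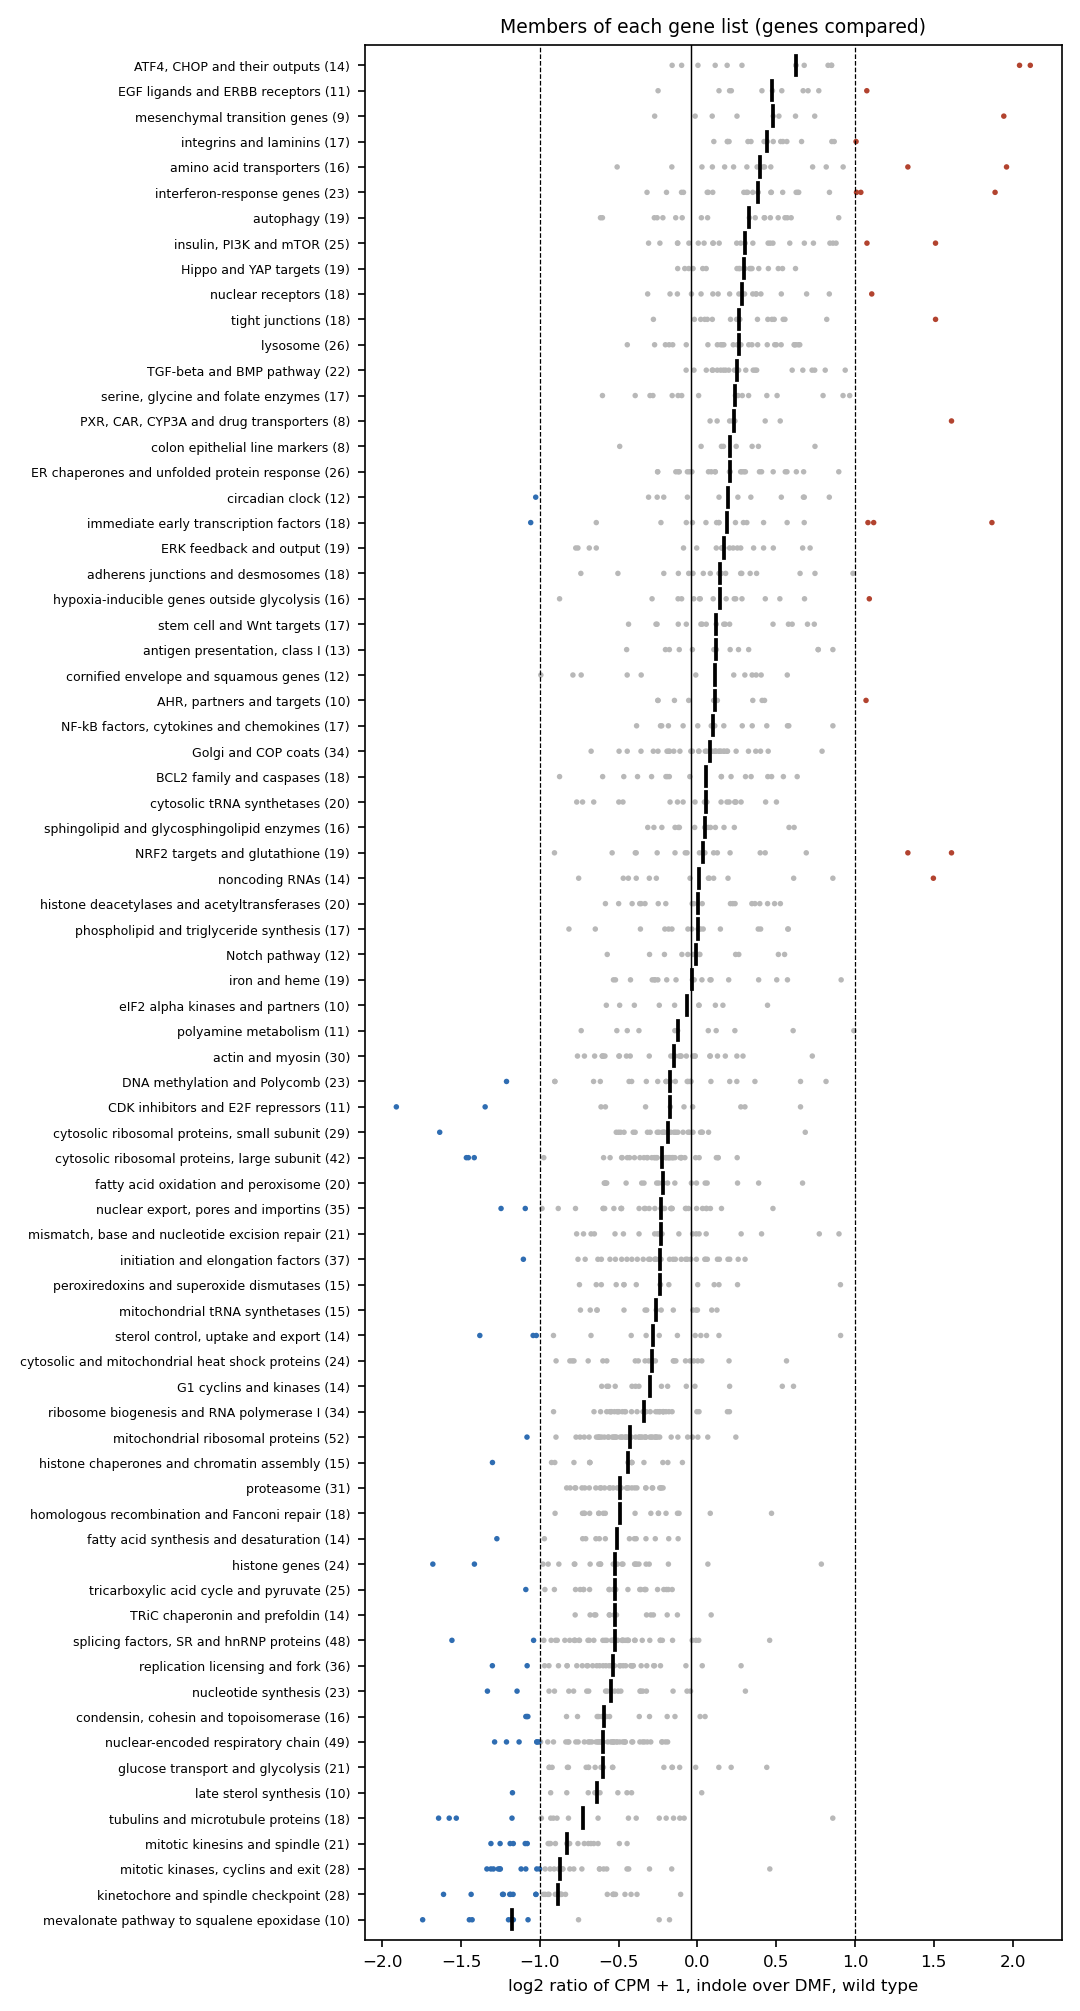
Log2 ratio of CPM plus 1, indole over DMF in wild type, for each compared member of gene lists, in order of the list median (black bar). Each list shown has at least 8 genes compared, a number given in parentheses, and not every such list is shown. The solid line marks the median of all genes (-0.04) and dashed lines 2-fold; medians run from -1.18 for the mevalonate pathway to 0.62 for ATF4 outputs.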

How the data were processed

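Total RNA of 4 HCT116 libraries was measured by targeted sequencing of 1 amplicon per gene (Ion AmpliSeq transcriptome kit, after a column RNA kit, per the labels' protocols). The deposited files hold raw read counts per target; the authors applied no normalization to these counts, to judge by their values, and the build was hg19, as the submitters' processing notes say. Which aligner and counting program were used is not given in the sources used here. Rows of 10 spike-in targets had 0 reads and were left out, leaving 20802 targets.

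Counts were scaled by TMM (edgeR 4.0.16 in R 4.3.3) over the 4 libraries to CPM, with factors from 0.938 to 1.058. Genes of at least 10 CPM in 1 of the 2 libraries compared entered, and log2 ratios used a pseudocount of 1 CPM. Each group is 1 library, so no test was run. Intervals of plain ratios are exact 95% Clopper-Pearson intervals from the 2 read counts (scipy 1.17.1). At these totals 10 CPM is about 200 reads. The steps were tested on simulated data.

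The comparison, the 86 gene lists and the motifs were chosen with earlier results of these data known. Genes named in the text are the 15 largest log2 ratios each way, the 10 largest each way of at least 200 CPM, the 10 largest each way under 10 CPM with at least 50 reads in 1 library, the 4 members farthest in the direction of each list's median, members 2-fold the other way, the AHR list, the 10 most abundant genes, IDO1 and regulators needed to describe a list. Transcript length and GC content came from the longest GENCODE 29 transcript of each symbol (8125 of 8679 genes, 93.6%). Promoters came from the RefSeq table of GRCh38.p14, matched by symbol or else by Entrez gene identifier for 14954 of 20802 genes. They were used for sequence only, never joined to hg19 coordinates. Some genes and lists are not reported here. Alternatives were other scalings (library totals, size factors of DESeq2 1.42.0), pseudocounts, filters and removal of trends.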

Additional observations from a re-analysis of the deposited data

Results flagged for a closer look

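Of the named genes that differed by 2-fold or more in wild type, 2 had a log2 ratio of at least 0.5 in the opposite direction in the IDO1 line. Each group is 1 library, so the difference between the lines was not tested. TJP1, the tight junction scaffold, had a log2 ratio of 1.51 in wild type and -0.53 in the IDO1 line, a difference of -2.04 (IDO1 line minus wild type). LOC100506123, an uncharacterized locus, had 2.25 and -0.84, a difference of -3.09. In the IDO1 line both genes were under 10 CPM in each library, since the minimum level was asked of the wild type libraries only. LOC100506123 stood there at 6.57 CPM with DMF and 3.24 CPM with indole, from 150 and 62 reads.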

How the results depend on the processing

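Against 118 higher and 134 lower genes and a median of -0.04, library totals gave 248, 75 and 0.14, and library totals without the 10 most abundant genes gave 264, 75 and 0.14. A pseudocount of 5 CPM gave 57 higher genes, no filter 220, a minimum of 1 CPM 220, and a minimum of 50 CPM 30 higher and 88 lower with a median of -0.14. Removal of a linear trend with level, GC content and length, chosen after seeing the data, gave 83 lower genes over the 8125 with a matched transcript, so both the trend and the genes tested changed. The tryptophan, kynurenine and NAD list went from 0.28 above all genes to -0.07 at a minimum of 1 CPM. Of 867 list medians relative to all genes under the alternatives, 745 stayed within 0.1 of the value reported, 121 moved by more and 1, named above, changed sign from a size of at least 0.2. The sign changes of the ribosomal lists are among the 121. Lists with a median close to that of all genes could change sign and still count among the 745. Phospholipid and triglyceride synthesis, which went from 0.04 to -0.04, is an example. Of 3669 gene log2 ratios, 2782 stayed inside their counting interval or within 0.05, 887 moved outside it and 0 that were called changed sign. No paired analysis was possible because each group is 1 library and the labels carry no replicate numbers. With 1 library per group, the wild type library with indole cannot be left out in turn, and what it owes to indole cannot be told apart from the library itself. Under about 200 reads a gene's counting interval widens, as for MMP7 and SLPI.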
